A study of Homo sapiens with 63 samples.

Results

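Oxidative phosphorylation genes of the nuclear genome were followed in 9 small cell lung cancer (SCLC) cell lines under 7 conditions. The members were all array probes whose platform symbol began with NDUFA, NDUFB, NDUFC, NDUFS or NDUFV (complex I), UQCR (complex III), COX4 to COX8 (complex IV) or ATP5 (complex V), together with SDHA to SDHD (complex II), CYC1 (complex III) and USMG5, now ATP5MK (complex V). Assembly factors (15 probes) and pseudogenes (3 probes) were left out. The rule gave 112 of the 47217 probes on the array, for 84 symbols. Complex I had 42 probes for 36 genes, complex II 5 probes for 3 genes, complex III 14 probes for 9 genes, complex IV 18 probes for 17 genes and complex V 32 probes for 18 genes. The last of the 112, NDUFB2-AS1, is an RNA antisense to NDUFB2 that the rule caught by its name. It is no subunit, and it was detected on 0 of the 63 arrays.

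These genes encode the respiratory chain and the ATP synthase of the inner mitochondrial membrane. Complexes I and II feed electrons from NADH and succinate to ubiquinone, complex III passes them to cytochrome c and complex IV to oxygen, and complexes I, III and IV pump protons whose return through complex V drives ATP synthesis. SCLC is a fast-growing neuroendocrine lung tumour. Veliparib (ABT888) inhibits poly(ADP-ribose) polymerases, and cisplatin and ionizing radiation damage DNA.

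Cells received veliparib at 5 µM (A5) or 50 µM (A50), cisplatin at a dose set for each line between 0.4 and 14.5 µM alone (C+0) or with veliparib at 5 µM (C+5) or 50 µM (C+50), 2 Gy of gamma radiation (Rad), or vehicle (Con). The lines were H69, H128, H146, H187, H209 and H526 (H lines) and DMS53, DMS114 and DMS153 (DMS lines, given as D53, D114 and D153 in the sample labels). Each line and condition had 1 array, so the replicate is the cell line, with 9 lines per condition, and whether the arrays came from separate cultures is not stated. No exposure time is given here, because the study's methods name a shorter one for the arrays than the treatment text of the labels, which describes the survival assay. By the study's methods, the profile of short tandem repeats of H128 did not match the reference for that line. Values are log2 quantile-normalized signals, and a change is the mean within-line difference ± SE from 1 limma fit over the 63 arrays, called at a Benjamini-Hochberg adjusted p under 0.05 over 30716 tested probes. A change in such bulk RNA does not tell fewer cells with a transcript from less of it per cell.

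Between 19124 and 22330 probes were detected per array. Of 9 neuroendocrine markers with a probe, 7 were detected in all 9 lines under vehicle, while H526 was highest in all 4 tuft-like markers, with the tuft cell regulator POU2F3 at 9.69. DMS114 was highest in 5 of 6 fibroblast markers, among them DCN (11.24) and COL3A1 (11.30), and in 4 of 5 YAP1-high markers, with YAP1 at 8.75 and WWTR1 detected in no line. H128 was highest in the remaining ones, COL1A2 (9.29) and CAV1, which hardly differed between lines (6.66 to 6.73). Of 4 leucocyte markers, PTPRC and CD3E were detected in no line under vehicle and CD68 in all 9. Of 8 proliferation genes, 7 fell in each of A50, C+0 and C+5 and 8 in C+50 against Con (median changes -0.34, -0.32, -0.33 and -0.46), and 0 were called in Rad. Over all genes, with 1 probe each, 8.32%, 1.36%, 1.61% and 12.1% fell in A50, C+0, C+5 and C+50. The part of the proliferation genes in the changes below was not tested.

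Of the 112 member probes, 103 for 77 genes passed the filter of detection on at least 4 arrays. The 9 that did not were mostly tissue-restricted isoforms of complex IV. COX4I2, COX6A2, COX7A1 and COX8C, whose products replace widely expressed isoforms in tissues such as lung, muscle or testis, were detected on 0 of 63 arrays, and the testis isoform COX6B2 on 3 and 0 arrays by its 2 probes. The widely expressed counterparts COX4I1, COX6A1, COX6B1, COX7A2 and COX8A were detected on all 63. The probe of NDUFS6 (detected on 1 array) and 1 of 3 probes of NDUFB4 (on 0) also failed. The tested members were bright, with mean levels from 6.61 to 13.57 and a median of 10.68, against a median of 6.93 over all tested probes.

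Differences between the lines made up most of the variation. The line accounted for a median of 94.3% of the sum of squares of a member probe and the condition for 1.31%, against 86.6% and 2.53% over all tested probes. Under vehicle, 62 of the 103 member probes (60.2%) differed between the highest and lowest line by over 1 on the log2 scale, against 35.8% of all tested probes. Members were also brighter (median level 10.68 against 6.93). No comparison with probes of like level is given, so these shares cannot be read as particular to the members. The exception on the condition side was ATP5MK, with 17.2% of its variation between conditions, the highest share among the members.

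ATP5MK had the largest change of any member. It encodes a small subunit of the ATP synthase membrane domain (also called DAPIT or USMG5), known for its place at the contact between ATP synthase dimers. The signal under veliparib alone was 6.57, 7.33 and 8.22 (lowest, median and highest line) in Con, 6.53, 7.29 and 8.42 in A5, and 6.74, 8.18 and 9.47 in A50. It rose in A50 in all 9 lines, by 0.70 ± 0.07 on the log2 scale against Con (adjusted p = 8.71e-11) and by 0.67 ± 0.07 against A5 (adjusted p = 1.29e-09). In A5 against Con the difference was 0.03 ± 0.07 (adjusted p = 1), higher in 3 of 9 lines.

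ATP5MK also rose with the veliparib dose on top of cisplatin. The signal was 6.90, 7.97 and 9.70 in C+50 and 6.46, 7.36 and 8.48 in C+0, a rise of 0.69 ± 0.07 in C+50 against C+0 in 9 of 9 lines (adjusted p = 2.22e-10). C+50 was 0.72 ± 0.07 above Con (adjusted p = 1.8e-11). Cisplatin alone gave 0.03 ± 0.07 against Con (adjusted p = 0.932), C+50 gave 0.01 ± 0.07 against A50 (adjusted p = 0.972), and Rad gave -0.02 ± 0.07 against Con (adjusted p = 0.945). ATP5MK had the largest rise of all probes standing for a gene symbol in A50 against Con, A50 against A5, C+50 against C+0 and C+50 against Con, and ranked 2, 2, 3 and 2 among all 30716 tested probes.

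The size of the ATP5MK rise differed between lines. In A50 against Con it was largest in DMS114, with 9.47 in A50 and 8.13 in Con (2.54-fold), and it lay between 1.3-fold in H187 and 1.82-fold in DMS153 in 7 other lines. H69 had 6.74 in A50 and 6.57 in Con, where the probe was not detected, so no fold is given. The probe was detected on 56 of 63 arrays, on all 7 arrays of 7 lines, on 5 of H187 and on 2 of H69, the A50 and C+50 arrays. With a background-corrected normalization (neqc), the rise was 1.12 in A50 and 1.14 in C+50 against Con.

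**Figure D1:**
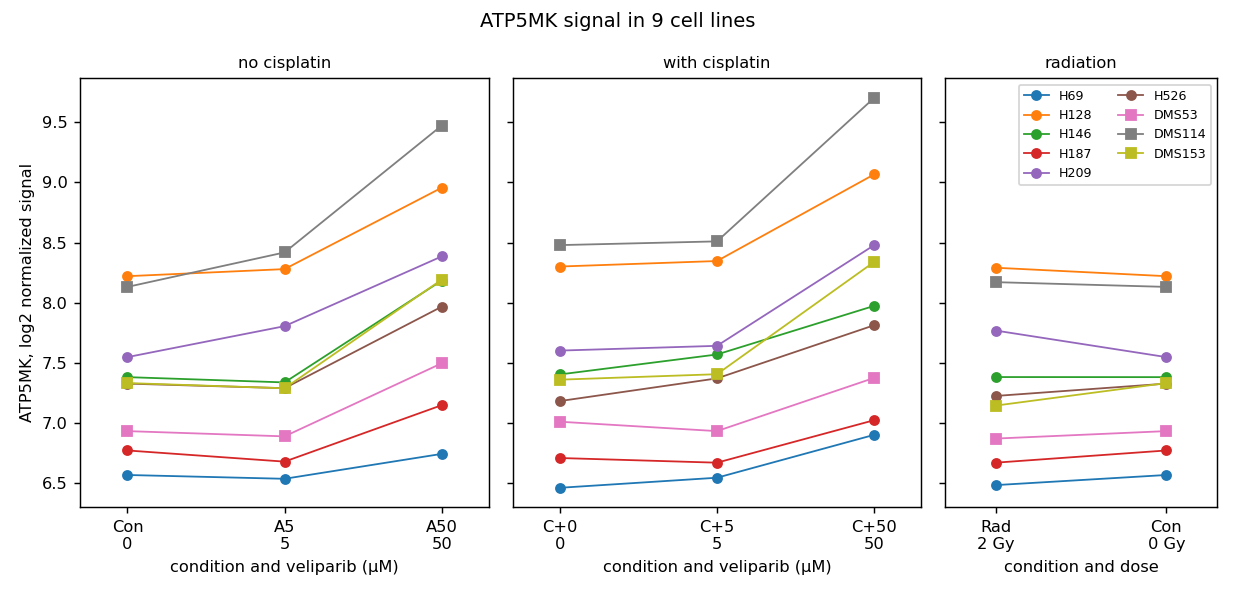
Signal of ATP5MK (log2 normalized, y axis) in each of 9 lines (1 line of points each; squares are DMS lines) by condition and veliparib dose without cisplatin, with cisplatin, and after radiation. All 9 lines lie higher at 50 µM than at 0 or 5 µM in both veliparib panels, and DMS114 reaches the highest values, 9.47 in A50 and 9.70 in C+50.

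The 2 nearest tested genes on the chromosome did not share the rise. TAF5, a subunit of TFIID that lies next to ATP5MK on chromosome 10 of the RefSeq annotation (GRCh38.p14), fell by 0.12 ± 0.03 in A50 (adjusted p = 0.00274) and by 0.14 ± 0.03 in C+50 (adjusted p = 0.000246) against Con. PDCD11, on the other side, changed by -0.00 ± 0.04 in A50 (adjusted p = 0.995) and by -0.03 ± 0.04 in C+50 (adjusted p = 0.745).

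Promoters of 3 members are shown because the largest rise, the largest fall and the most repeated rise of complex II fell on them. The fall of ATP5MG and the rise of SDHA were each called by 1 of 2 probes only. Each run is the RefSeq sequence (GRCh38.p14) of 300 bases around the annotated gene start, most of it before the start, 5′ to 3′ on the gene's strand: ATP5MK at chr10:103396426-103396725 on the minus strand, ATP5MG at chr11:118401356-118401655 and SDHA at chr5:218070-218369 on the plus strand. Capitals mark matches, on either strand, to 3 motifs known from promoters of mitochondrial genes: the NRF1 site, CCGGAAG (the ETS family, which includes GABP) and AANATGGC (YY1), where N is any base.
ATP5MK: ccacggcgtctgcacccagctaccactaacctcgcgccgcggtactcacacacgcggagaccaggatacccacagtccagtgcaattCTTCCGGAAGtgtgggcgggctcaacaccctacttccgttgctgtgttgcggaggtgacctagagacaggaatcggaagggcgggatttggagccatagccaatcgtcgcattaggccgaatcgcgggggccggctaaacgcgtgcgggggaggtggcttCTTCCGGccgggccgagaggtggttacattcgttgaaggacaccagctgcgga
ATP5MG: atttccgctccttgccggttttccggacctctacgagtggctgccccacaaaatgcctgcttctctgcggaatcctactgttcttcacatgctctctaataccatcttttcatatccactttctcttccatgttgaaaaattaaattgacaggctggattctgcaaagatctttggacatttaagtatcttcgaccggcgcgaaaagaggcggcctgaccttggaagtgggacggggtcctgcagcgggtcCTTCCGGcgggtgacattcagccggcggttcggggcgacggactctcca
SDHA: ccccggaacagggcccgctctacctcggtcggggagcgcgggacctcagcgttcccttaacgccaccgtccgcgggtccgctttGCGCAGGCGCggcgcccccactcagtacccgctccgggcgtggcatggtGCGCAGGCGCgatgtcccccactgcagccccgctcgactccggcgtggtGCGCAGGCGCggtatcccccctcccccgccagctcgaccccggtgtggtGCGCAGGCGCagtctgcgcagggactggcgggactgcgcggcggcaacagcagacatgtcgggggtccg
The ATP5MK promoter held 3 ETS matches, 2 of which overlap as both strands of 1 palindrome, and 0 NRF1 or YY1 matches. ATP5MG held 1 ETS match and SDHA 4 NRF1 matches, counted over both strands. Promoters were found for 68 of the 83 protein-coding member genes. NRF1 matches were in 16 of these (23.5%), against 6.28% of all 27305 promoters and 10.3% of those of tested genes. ETS matches were in 19 (27.9%), against 10.7% and 16.5%, and YY1 matches in 20 (29.4%), against 6.82% and 9.09%. A match describes the letters in this window only.

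With the other members of the veliparib response, changes were small. In A50 against Con, 15 of 103 member probes (14.6%) rose, beside 5.45% of all tested probes, and 2 (1.94%) fell, beside 6.22%. Among probes that passed a stricter detection filter (17075 probes) 15 of 95 members (15.8%) rose and 2 (2.11%) fell, beside 10.8% and 11.8% of all. The median member change was 0.04 and that of all probes 0.00, and ATP5MK was the only member beyond 1.5-fold. In A5 against Con, 0 members were called, beside 0% of all probes. There, 7 members (6.8%) had an unadjusted p under 0.05, against 4.23% of all probes. The calls of the small rises depended on the scaling. With every array scaled to 1 median in place of quantile normalization, 1 member rose (ATP5MK, by 0.65) and 8 fell, with a median of -0.06, and all probes split into 222 higher and 3517 lower. Of the small rises, COX6A1 (-0.02) and ATP5PF probe 1 (-8e-04) then lay below 0. The 90th percentile of the raw signal moved with the condition, by between -0.50 and 0.26 (log2, A50 over Con) across lines and downward in 7 of 9 lines, and its part in the small changes was not tested.

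In A50, 4 of 40 tested probes rose in complex I, 1 of 5 in complex II and 1 of 14 in complex III. Complexes IV and V had 3 of 12 and 6 of 32, beside 5.45% of all tested probes. In complex I, NDUFV1, the NADH-binding flavoprotein, had levels of 9.73, 10.52 and 12.49 in A50 and 9.62, 10.36 and 12.34 in Con, and rose in 9 of 9 lines, by 0.19 ± 0.05 (adjusted p = 0.00432). The levels overlapped widely, since the lines differed by more than the treatment moved any of them. The accessory subunits NDUFA10 (probe 2, 0.20 ± 0.04, 8 of 9 lines), NDUFA7 (0.15 ± 0.04, 8 of 9) and NDUFA3 (0.15 ± 0.03, 9 of 9) rose as well. Probe 1 of NDUFA10 changed by 0.13 ± 0.05 (adjusted p = 0.0907). In complex II, SDHA, the flavoprotein that oxidizes succinate, rose by 0.17 ± 0.03 in 8 of 9 lines (probe 2, adjusted p = 0.000168), and its other probe changed by 0.13 ± 0.06 (adjusted p = 0.234).

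UQCRC2, a core protein of complex III, rose by 0.16 ± 0.05 in 8 of 9 lines (adjusted p = 0.0192). In complex IV, COX4I1, the regulatory subunit at which ATP is known to bind, rose by 0.14 ± 0.03 and COX6A1 by 0.09 ± 0.03, each in 9 of 9 lines. COX7A2L, known for joining complexes III and IV into supercomplexes, rose by 0.14 ± 0.04 in 9 of 9 lines, with DMS114 far above the rest. In complex V, ATP5F1E and ATP5F1D (probe 1) of the central stalk rose by 0.15 ± 0.04 and 0.15 ± 0.04, each in 8 of 9 lines. ATP5MC1 (probe 1) of the rotor ring rose by 0.12 ± 0.04, also in 8 of 9. The other probe of each of ATP5F1D and ATP5MC1 was not called. Leaving out 1 line ended some of the calls named here. COX7A2L was lost without DMS114, ATP5F1D without H209, UQCRC2 without H128, H146 or H187, COX6A1 without H69, H526 or DMS53, and ATP5MC1 without H69, H128, H146, H209 or H526. ATP5MC1 and COX6A1 were also lost with neqc and with only the compared arrays fitted, and ATP5MC1 with no filter.

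The 2 falls in A50 were each seen by 1 of 2 probes of a gene. ATP5MG encodes subunit g of the membrane domain, which also lies near the dimer contact. Its probe 2 (mean level 8.86) had 7.93, 8.86 and 9.42 in A50 and 8.12, 9.18 and 9.71 in Con, a fall of 0.23 ± 0.05 in 8 of 9 lines (adjusted p = 0.000194). Its probe 1 (mean level 12.81) gave 0.07 ± 0.03 (adjusted p = 0.187). ATP5IF1 encodes the inhibitor that blocks ATP hydrolysis by the synthase. Its probe 1 (mean level 7.77) had 7.34, 7.59 and 8.19 in A50 and 7.55, 7.83 and 8.32 in Con. It fell in 9 of 9 lines, by 0.16 ± 0.04 (adjusted p = 0.00196), and probe 2 (mean level 9.93) gave 0.04 ± 0.04 (adjusted p = 0.634). Under vehicle the probe pairs of these genes followed each other over the 9 lines with r = 0.70 (ATP5MG) and 0.38 (ATP5IF1). Over the 31 probe pairs of the 21 genes with several tested probes, 15 had r of at least 0.8 and 8 had r under 0.5, and in 0 pairs were the probes called in opposite directions in the same comparison.

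Cisplatin with 50 µM veliparib was compared with the same Con arrays. In C+50 against Con, 12 members (11.7%) rose and 3 (2.91%) fell, beside 8.12% and 9.1% of all tested probes. Under the stricter filter 12 of 95 (12.6%) rose and 5 (5.26%) fell, beside 15.3% and 16.5% of all. The median member change was 0.005. SDHA (probe 2) had 9.27, 9.84 and 10.70 in C+50 and 9.18, 9.66 and 10.52 in Con, and rose in 9 of 9 lines, by 0.23 ± 0.03 (adjusted p = 5.1e-07). The other SDHA probe was not called. UQCRC1, the other core protein of complex III, rose by 0.15 ± 0.04 in 9 of 9 lines (adjusted p = 0.00117). ATP5F1D (probe 1) rose by 0.16 ± 0.04 in 8 of 9 (adjusted p = 0.00304), and its other probe was not called.

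ATP5MG (probe 2) fell by 0.26 ± 0.05 in C+50 in 9 of 9 lines (adjusted p = 1.63e-05) against Con. Its brighter probe 1 was not called. COX5A, a subunit of complex IV that faces the matrix, had 11.45, 12.14 and 12.70 in C+50 and 11.62, 12.20 and 12.78 in Con, a fall of 0.14 ± 0.04 in 8 of 9 lines (adjusted p = 0.00601). UQCR11, a small complex III subunit, also fell by 0.14 ± 0.04 (adjusted p = 0.00603), but in 6 of 9 lines. Scaled to 1 median, 3 members rose and 3 fell in this comparison. UQCRC1, ATP5F1D (probe 1) and COX5A were then no longer called.

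**Figure D2:**
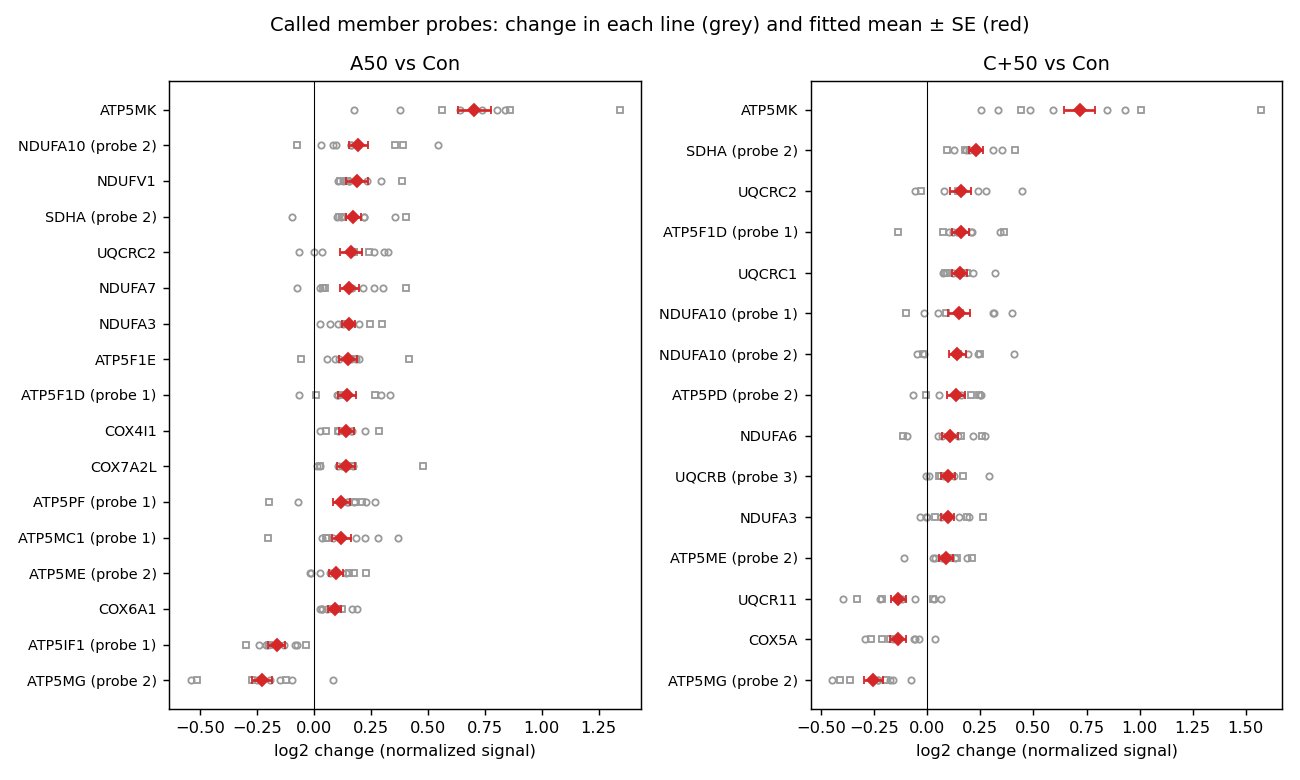
Log2 change of the called member probes in A50 (left) and C+50 (right) against Con (x axes), with grey points for the 9 lines (squares are DMS lines) and red diamonds with bars for the fitted mean ± SE. ATP5MK stands at 0.70 and 0.72, and the other called probes lie between -0.26 and 0.23.

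With cisplatin alone or with 5 µM veliparib, few members and few of all probes were called. In C+0 against Con, 0 members rose and 1 (0.971%) fell, beside 0.339% and 0.921% of all probes. The 1 was NDUFS1, the largest iron-sulphur subunit of complex I, with 6.80, 7.10 and 7.43 in C+0 and 6.90, 7.23 and 7.59 in Con, a fall of 0.13 ± 0.03 (adjusted p = 0.0352) that was seen in 7 of 9 lines and was no longer called without any 1 of H128, H146, H526, DMS53 or DMS153 (0 members then). In C+5 against Con, SDHA (probe 2) had 9.29, 9.64 and 10.63 in C+5 and 9.18, 9.66 and 10.52 in Con. It rose by 0.14 ± 0.03 in 8 of 9 lines (adjusted p = 0.0207). This was the 1 member (0.971%) called higher, beside 0.54% of all probes, with 0 lower beside 1.12%. The other SDHA probe changed by 0.03 ± 0.06 (adjusted p = 0.931) and was higher in 5 of 9 lines. The call of probe 2 was lost without H128, H526 or DMS153.

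The step from the lower to the higher veliparib dose was tested within treated cells. In A50 against A5, 6 members (5.83%) rose and 2 (1.94%) fell, beside 3.28% and 3.98% of all probes. UQCRC2 rose by 0.20 ± 0.05, NDUFA7 by 0.14 ± 0.04 and NDUFA3 by 0.13 ± 0.03, each in 9 of 9 lines. NDUFB5, an accessory subunit of complex I, rose by 0.11 ± 0.03 in 8 of 9. NDUFB1 and UQCR11 fell, by 0.11 ± 0.03 in 7 lines and 0.12 ± 0.04 in 6. Without H69, 4 members were called, and without DMS153, 5. NDUFA7 was lost without H69, DMS53 or DMS153, NDUFB5 without H69, H146 or DMS53, NDUFB1 without H209, DMS53 or DMS153, and UQCR11 without H69, H128, H146, H187, H209 or DMS114. This comparison shares its A50 arrays with that against Con.

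In C+50 against C+0, 6 members (5.83%) rose and 4 (3.88%) fell, beside 5.35% and 6.38%. NDUFA10 (probe 1) had 8.52, 8.93 and 9.59 in C+50 and 8.33, 8.69 and 9.32 in C+0, a rise of 0.23 ± 0.05 in 9 of 9 lines (adjusted p = 0.000856). ATP5MG (probe 2) fell by 0.20 ± 0.05 and UQCR11 by 0.15 ± 0.04, both in 9 of 9. The brighter probe 1 of ATP5MG was not called. Without H69 or without H209, 6 members were called in place of 10. In C+5 against A5 and in C+50 against A50, 0 members were called, beside 0.378% and 0.368% of all probes, with 7 and 13 members at an unadjusted p under 0.05. A test of whether C+50 differed from C+0 and A50 added together called 0 members, beside 0.00977% of all probes, with a median of -0.03 and 10 members at an unadjusted p under 0.05.

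Few members were called after radiation over the 9 lines. In Rad against Con, 1 member (0.971%) rose and 1 (0.971%) fell, beside 0.612% and 0.215% of all probes, although 24 of 103 had an unadjusted p under 0.05 (23.3%, against 12.2% of all probes) and only 30 lay above 0, with a median of -0.02. CYC1, cytochrome c1 of complex III, had 10.59, 11.44 and 11.75 in Rad and 10.69, 11.58 and 12 in Con. It was lower in 9 of 9 lines, by 0.16 ± 0.03 on average (adjusted p = 0.0082). UQCRH, the acidic hinge protein of complex III, had 8.30, 9.58 and 10.54 in Rad and 7.98, 9.15 and 10.00 in Con by its probe 1 (mean level 9.19). This probe rose by 0.31 ± 0.07 in 7 of 9 lines (adjusted p = 0.0206). The brighter probe 2 of UQCRH (mean level 12.95) was not called. Without H146, 0 members were called, without H69, H128, H187, H209 or H526 1, and without DMS153 5. UQCRH probe 1 was lost without any 1 of the 6 H lines and CYC1 without H146. Scaled to 1 median, 0 were called.

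The rise of UQCRH probe 1 was seen in the 6 H lines and 1 DMS line. Its change in Rad against Con was -0.20, -0.08 and 0.16 in the 3 DMS lines (mean -0.04), and between 0.32 and 0.74 in the 6 H lines (mean 0.49), without overlap. The DMS lines differed from the H lines by -0.53 ± 0.12 (adjusted p = 0.00478). Probe 2 of UQCRH (mean level 12.95) gave a difference of -0.00 ± 0.05 (adjusted p = 0.992). UQCRHL is a near-identical copy of UQCRH, so a probe may bind transcripts of both. Its probe gave -0.22 ± 0.08 (adjusted p = 0.121), with 0 of 3 DMS lines and 6 of 6 H lines higher in Rad.

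In all, 1 member (0.971%) was called higher and 4 (3.88%) lower in DMS than in H lines for the Rad change, beside 0.606% and 2.72% of all probes. NDUFB9, an accessory subunit of complex I, differed by -0.37 ± 0.10 (adjusted p = 0.0161), its change lying between -0.21 and -0.12 in the DMS lines and between 0.15 and 0.28 in the H lines. ATP5F1C, the rotating gamma subunit, differed by -0.35 ± 0.10 (adjusted p = 0.0239) and UQCRC2 by -0.31 ± 0.09 (adjusted p = 0.0306), each with 1 of 3 DMS lines and 6 of 6 H lines higher. ATP5ME (probe 2, subunit e) differed by 0.20 ± 0.06 (adjusted p = 0.0464), with 3 of 3 DMS lines and 0 of 6 H lines higher. Without DMS53, 0 of these were called, without DMS153 2, and without H69 or H187 3. Scaling decided the count, since with every array scaled to 1 median, 63 members were lower in this difference (median -0.32, all probes -0.07) and ATP5ME turned to -0.16. The 90th percentile of raw signal (log2, Rad over Con) was 0.05, -0.24 and -0.25 in DMS114, DMS153 and DMS53, and between -0.18 and 0.19 in the H lines. Its part in the difference was not tested. In the sample list the Rad arrays of the H lines stand apart from their other arrays, among those of DMS153. The Rad arrays of the DMS lines come last. Whether this order follows the processing of the arrays is not stated, and its part in the Rad changes was not tested.

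**Figure D3:**
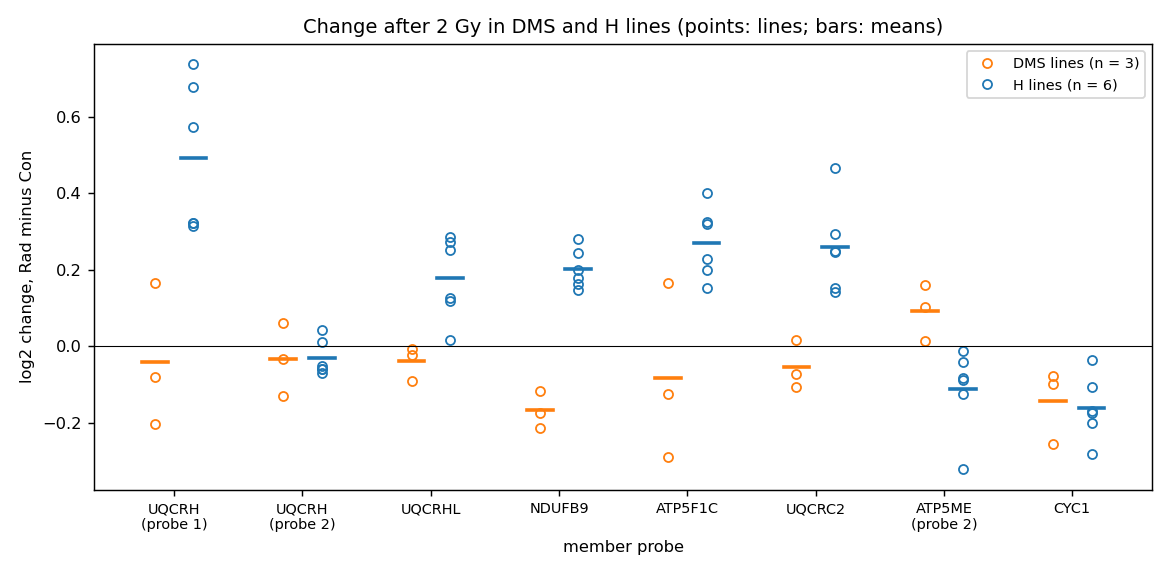
Log2 change in Rad minus Con (y axis) of 8 member probes, with a point for each of the 3 DMS lines (orange) and 6 H lines (blue) and bars at the group means. UQCRH probe 1 and NDUFB9 separate the DMS from the H lines, while UQCRH probe 2 and CYC1 do not.

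The 20 tested probes of 17 core genes (catalytic and iron-sulphur subunits, cytochrome c1 and the largest proteins of each complex) had median changes between -0.02 and 0.01 in the 6 comparisons with Con. In A50, 4 rose and 0 fell (NDUFV1, SDHA probe 2, UQCRC2 and COX4I1), beside 5.45% and 6.22% of all tested probes. In C+50, 3 rose and 1 fell, beside 8.12% and 9.1%. ATP5F1A and ATP5F1B, the alpha and beta subunits that form ATP, had mean levels of 12.64 and 12.85 (ATP5F1A) and 13.57 (ATP5F1B) and were called in no comparison.

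Other genes of the pathway moved in both directions, from lists counted with 1 probe per gene. Of 77 member genes counted this way, 12 rose and 0 fell in A50 against Con, beside 6.74% and 8.32% of all 15460 genes with a tested probe. Of 46 assembly factors, 7 rose and 6 fell (median -0.01), among them UQCC1, a factor for complex III (0.22 ± 0.03), SURF1, a factor for complex IV (0.20 ± 0.04), COA3 (-0.26 ± 0.04) and COX20 (-0.24 ± 0.04), both needed for the first steps of complex IV. Of 76 mitochondrial ribosomal proteins, 7 rose and 7 fell in A50 and 7 rose and 15 fell in C+50, where 10.5% of all genes rose and 12.1% fell. Of 12 genes of the citric acid cycle, 3 rose and 1 fell in A50, with IDH3G of isocitrate dehydrogenase at 0.22 ± 0.04 and citrate synthase (CS) at -0.13 ± 0.04.

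For the lists that follow, 6.74% of all genes rose and 8.32% fell in A50, and 10.5% rose and 12.1% fell in C+50. Of 16 genes of mitochondrial transcription and biogenesis, 4 rose and 1 fell in A50 and 6 rose and 2 fell in C+50. TFAM, which packages mitochondrial DNA and takes part in its transcription, rose by 0.16 ± 0.03 in A50 and 0.19 ± 0.03 in C+50. GABPB1, a subunit of GABP, fell by 0.25 ± 0.04 and 0.32 ± 0.04. Of 10 carriers and exchangers, 0 rose and 2 fell in A50, the ADP/ATP carrier SLC25A4 (-0.18 ± 0.04) and the channel VDAC3 (-0.175 ± 0.036). Of 19 glycolysis genes, 3 rose and 2 fell in A50 and 4 rose and 3 fell in C+50, with the glucose transporter SLC2A1 lower by 0.15 ± 0.05 and 0.22 ± 0.05. Of 75 cytosolic ribosomal proteins, 3 rose and 4 fell in A50. In A5 against Con, 0 genes of these lists were called, and in C+0 and in C+5 the 1 called was HK1, a hexokinase, lower by 0.10 ± 0.03 in each, beside 1.36% and 1.61% of all genes lower.

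The largest differences among the members lay between lines and not between conditions. COX7B2, an isoform of COX7B known mainly from testis, had 10.72 in DMS53 under vehicle, against 6.32 to 6.77 in the other 8 lines. It was detected on 7 of 7 arrays of DMS53 (10.31 to 10.72) and on 8 of the 56 others, where it stayed at 6.26 to 6.85. NDUFA9, a complex I subunit near the ubiquinone site, was at 13.05 in DMS53 and at 9.85 to 10.61 in the other lines. Its 7 DMS53 arrays (12.80 to 13.05) lay above all 56 others (up to 10.76).

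DMS114 stood apart for 2 iron-sulphur or flavin subunits of the electron entry arm of complex I. NDUFV1 had 12.34 in DMS114 and 9.62 to 10.64 in the other lines, and NDUFS8 13.37 in DMS114 and 11.08 to 11.98 in the others. Over all conditions the lowest DMS114 value was 12.34 for NDUFV1 and 13.32 for NDUFS8, and the highest of the other 56 arrays 11.03 and 11.98. Differences of at least this size from the median of the other lines were found for 0.742% and 0.902% of all tested probes in DMS114. NDUFS8 has the seventh widest range and was taken up after its values were seen.

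NDUFV1 and NDUFS8 lie close together on chromosome 11, with 7 tested genes between them. The 10 tested genes that follow NDUFS8 in the RefSeq order were all higher in DMS114 than the median of the other lines, by 1.58 to 2.71, among them CPT1A, the gate of fatty acid entry into mitochondria (2.68), and the mitochondrial ribosomal protein MRPL21 (1.83). Of the 20 genes around NDUFS8, 13 were over 1 higher in DMS114, 3 before it and 10 after it. Over all tested probes, 3.52% were over 1 higher in that line. Around NDUFV1, 5 of 20 were over 1 higher, 1 before it and 4 after it. NDUFV1 is itself among the 3 counted before NDUFS8, and NDUFS8 among the 4 counted after NDUFV1. The 2 windows overlap, and GSTP1, FAM86C2P, TCIRG1 and CHKA enter both counts.

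For NDUFA9, of its 10 preceding neighbours on chromosome 12, 8 were over 1 higher in DMS53 than the median of the other lines, with the cell cycle gene CCND2 at 6.47, the kinase DYRK4 at 4.13 and the repair gene RAD51AP1 at 2.58, against 3.69% of all tested probes in that line. Of the 10 that follow, 2 were over 1 higher, SCNN1A and LTBR. COX7B2 on chromosome 4 had 4 of 20 neighbours over 1 higher, up to 1.60 for OCIAD2. DNA copy number was not measured on these arrays. These neighbourhoods were looked up after the line values were seen.

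**Figure D4:**
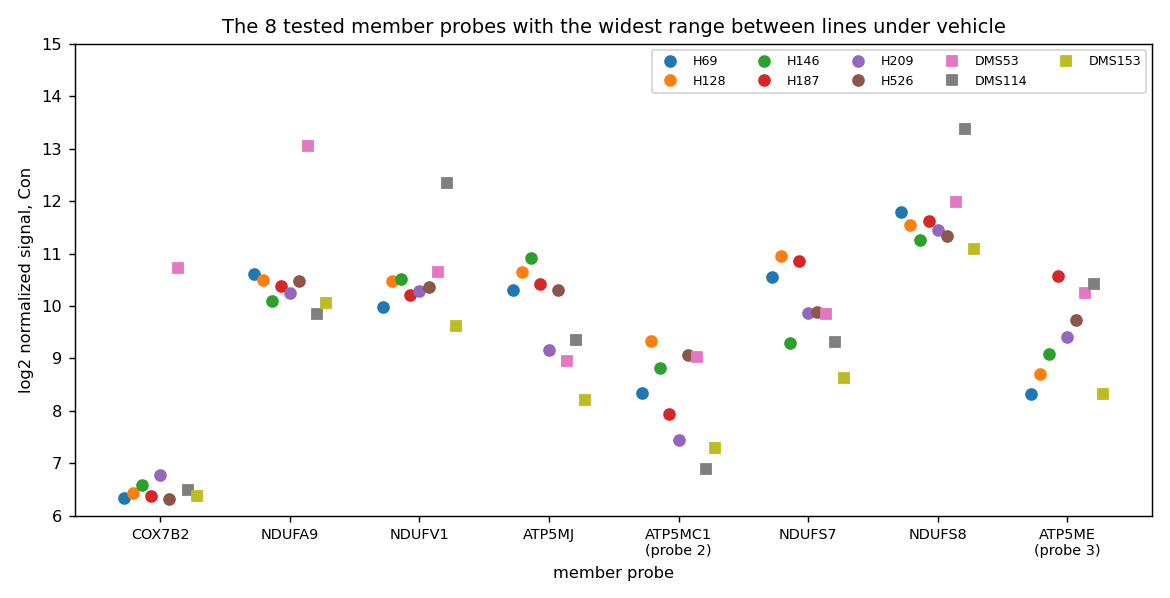
Log2 normalized signal under vehicle (y axis) of the 8 tested member probes with the widest range between lines, 1 point for each of 9 lines (squares are DMS lines). COX7B2 and NDUFA9 are high in DMS53 alone, NDUFV1 and NDUFS8 in DMS114 alone, while ATP5MJ and NDUFS7 spread over all lines.

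**Figure D5:**
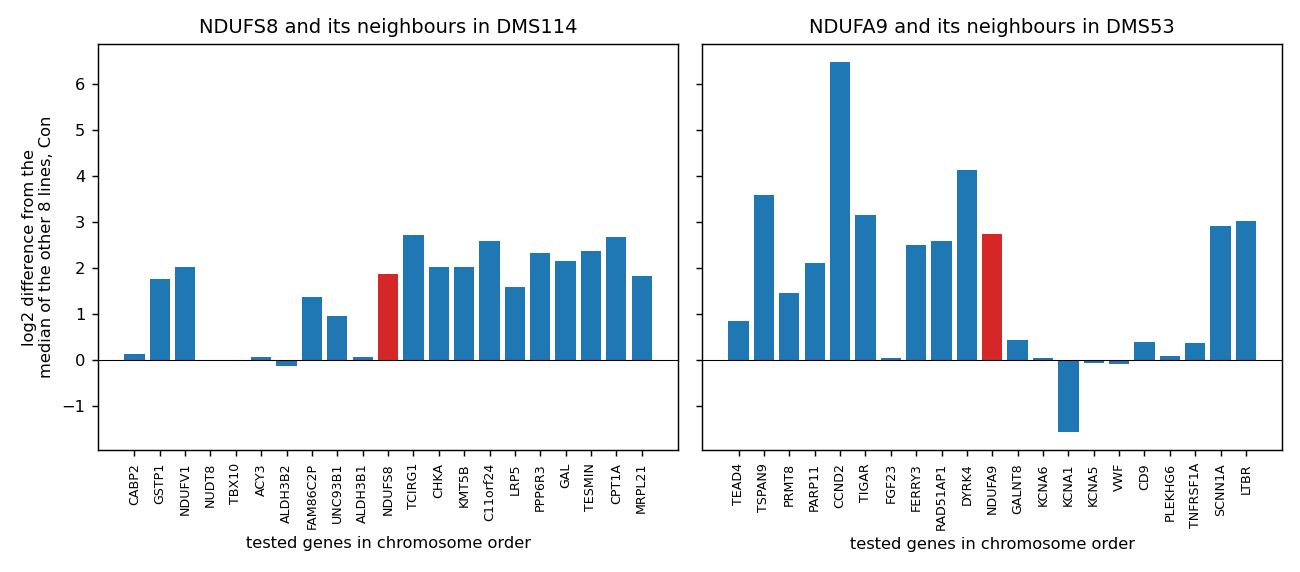
Log2 difference under vehicle of DMS114 (left) and DMS53 (right) from the median of the other 8 lines (y axis) for NDUFS8 and NDUFA9 (red) and the 10 tested genes on each side in chromosome order. Each bar is 1 gene, and all 10 genes after NDUFS8 are higher in DMS114, by 1.58 to 2.71.

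Other members varied more evenly. ATP5MJ, a small ATP synthase subunit, ranged from 8.21 in DMS153 to 10.91 in H146 under vehicle, and probe 2 of ATP5MC1 from 6.89 in DMS114 to 9.33 in H128. NDUFS7, the subunit with the last iron-sulphur cluster before ubiquinone, ranged from 8.62 in DMS153 to 10.95 in H128. The 5 narrowest ranges, 0.17 for NDUFA5, 0.19 and 0.32 for 2 NDUFB4 probes, 0.38 for NDUFV3 (probe 2) and 0.41 for ATP5MC2 (probe 3), all belonged to dim probes with means of 6.61 to 6.72 that were detected on 11 to 44 arrays. A bright member with a narrow range was NDUFAB1, the mitochondrial acyl carrier protein, at 11.19 to 11.65. It was singled out after its values were seen.

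As a whole, the members sat slightly higher in some lines than others. The median deviation of the 103 probes from their mean over the lines under vehicle was 0.23 in H128, the highest, and -0.18 in H146, -0.17 in DMS153 and -0.15 in DMS114, the lowest. In H128, 70 of 103 members were above their mean, against 25 in DMS114, 26 in DMS153 and 29 in H146. Over the 7 conditions the median deviation lay between 0.19 and 0.23 in H128, between -0.25 and -0.17 in DMS153 and between -0.18 and -0.09 in H146. Mitochondrial ribosomal proteins had medians of 0.28 in H128 and -0.30 in DMS153 as well, but -0.02 in H146 and 0.05 in DMS114. Cytosolic ribosomal proteins were also highest in H128 (0.147), with -0.033 in DMS153, 0.022 in H146 and 0.075 in DMS114. By comparison, the median change of the members within a line lay between -0.01 and 0.08 in A50 and between -0.08 and 0.04 in Rad, against Con.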

How the data were processed

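Total RNA of 9 SCLC lines under 7 conditions was hybridised to Illumina HT-12 v4 BeadChips, 1 array per line and condition. The deposited intensity of each probe is the authors' GenomeStudio 2010.3 bead signal on the linear scale, before normalization and again after quantile normalization by the authors. The deposited detection p-value compares a probe with the negative controls. Intensities before normalization (lowest 68.4) were quantile normalized over 63 arrays without background correction and log2 transformed in limma 3.58.1 (R 4.3.3). These values differed from the authors' values by at most 0.0151 (log2). A probe was kept when at least 4 arrays detected it (p under 0.05). Of 30716, 21620 had 1 symbol, 4 several and 9092 none used here, so some subunits were not analysed here.

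Conditions were compared with lmFit and eBayes with the line as a fixed block, and p-values were adjusted over all kept probes. Arrays of 1 line deviated together (median r 0.966 over 189 pairs across probes, against -0.13 between lines), which, with the line named in the labels, makes the comparisons paired. Named were up to 6 rises and 6 falls per comparison that were called and moved alike in at least 8 of 9 lines, core members, isoform sets, ATP5MK, the 5 widest and 5 narrowest ranges, and genes whose probes disagree. Other genes behind counts of 5 or fewer, and chromosome neighbours, were named after their values were seen. The members, lists and rules were chosen with earlier results of these data known. Mitochondrially encoded subunits were listed, and 0 had a tested probe. A gene in a list was represented by its brightest probe. The fit was tested on simulated data. Promoter motifs were searched with Python 3.11.15 and figures drawn with matplotlib 3.10.9. Alternatives were neqc (offset 16), the authors' normalized values, scaling to 1 median, no filter, a stricter one (at least 32 arrays at a p under 0.01), only the compared arrays, no block, no moderation, the thresholds of the study's methods (unadjusted p under 0.01, fold of at least 1.5), 1 probe per gene and each line left out. The number of arrays limits the precision, and the sources used here do not tie arrays to BeadChips, so no batch could be fitted.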

Additional observations from a re-analysis of the deposited data

Results flagged for a closer look

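Of 65 sets of changes over 9 lines, 2 had 1 line far from the other 8, and chance flags about 1 in 20 such sets. COX7A2L rose by 0.48 in DMS114 in A50 against Con, with the next line at 0.17. NDUFB5 changed by -0.17 in H209 in A50 against A5, with the next line at 0.09. Of the levels under vehicle, only the 5 members with the widest ranges were looked at, so that chance rate does not apply to them, and 3 had a far line. COX7B2 was at 10.72 in DMS53 (next 6.77), NDUFA9 at 13.05 in DMS53 (next 10.61) and NDUFV1 at 12.34 in DMS114 (next 10.64).

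The change in Rad against Con differed between DMS and H lines, by limma's test of the difference itself with an adjusted p under 0.05, for 5 probes. The differences, DMS minus H, were -0.53 for UQCRH (probe 1), -0.37 for NDUFB9, -0.35 for ATP5F1C, -0.31 for UQCRC2 and 0.20 for ATP5ME (probe 2).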

How the results depend on the processing

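With every array scaled to 1 median, the called members numbered 9 in A50, 0 in C+0, 0 in C+5, 6 in C+50 and 0 in Rad against Con, 4 in A50 against A5, 3 in C+50 against C+0 and 63 in the DMS minus H difference of the Rad change. Median member changes then were -0.055 (A50) and -0.036 (C+0) against Con, -0.046 (A50 against A5), 0.031 (C+5 against A5), 0.058 (C+50 against A50), 0.095 (C+50 against C+0 and A50 added) and -0.32 (DMS minus H). COX6A1 (-0.0169) and ATP5PF probe 1 (-8e-04) in A50 and ATP5ME probe 2 (-0.1609) in the DMS minus H difference changed sign. The cause was not tested. With neqc, 0 members were called in C+0, 0 in C+5, 4 in A50 against A5 and 2 in the DMS minus H difference. Fitting the compared conditions alone gave 0 in C+0, 0 in C+5, 9 in C+50, 0 in Rad, 5 in A50 against A5, 2 in C+5 against A5 and 1 in C+50 against A50. Without the line as a replicate block, 0 members were called in every comparison. Under the thresholds of the study's methods, ATP5MK was the 1 call in A50, C+50, A50 against A5 and C+50 against C+0, with 0 elsewhere. With 1 probe per gene the counts were 0 in C+5, 1 in Rad and 5 in C+50 against C+0.

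Leaving out each line in turn, the counts ranged from 13 to 17 (A50), 0 to 1 (C+0), 0 to 1 (C+5), 10 to 16 (C+50), 0 to 5 (Rad), 4 to 10 (A50 against A5), 6 to 9 (C+50 against C+0) and 0 to 5 (DMS minus H). Of 59 named changes, 59 kept their direction and call with the authors' normalized values, 41 with neqc and 18 with median scaling. A probe near background limits what can be read from ATP5MK in H69 and H187.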
